A study of Homo sapiens with 2 samples.

Results

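The epidermal differentiation complex is a cluster on the long arm of chromosome 1 (1q) that holds the genes for many structural proteins of the outer skin. It was taken as the 64 protein-coding genes of GENCODE release 44, mapped to GRCh37, that lie wholly within chr1:151950000-153620000 on hg19, out of 20163 protein-coding genes on chromosomes 1 to 22, X and Y. The deposited list of CHD4 peaks places 33 of its 60123 regions on these chromosomes in this interval. The ChIP-seq was done in 501Mel, an established human melanoma cell line kept in RPMI 1640 medium with foetal calf serum, and comprises 1 library of CHD4 ChIP and 1 of input. Both came from chromatin fixed with 0.4% paraformaldehyde, and the labels name no treatment or genetic change for either. Melanoma derives from melanocytes, so the cells are not of the keratinocyte lineage in which the complex is active, and no keratinocytes were assayed.

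CHD4 is the ATPase of NuRD, a nucleosome remodelling and histone deacetylase complex that moves nucleosomes and strips acetyl groups from histone tails. The genes of the complex are switched on in a set order as keratinocytes leave the basal layer. Filaggrin and its relatives bundle keratin filaments, and involucrin, loricrin, the small proline-rich (SPRR) and the late cornified envelope (LCE) proteins are cross-linked into the cornified envelope that seals the dead outer cells. The S100A genes, which encode small calcium-binding proteins, flank the cluster on both sides, and many of them are active outside the skin.

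Most CHD4 peaks of the complex lay towards its ends, in and between S100A genes, and few lay among the skin-specific genes in the middle. Of the 33 peaks, 9 overlapped an S100A gene and 22 overlapped no protein-coding gene. By position, 26 peaks (78.8%) lay either from *S100A10* to just beyond *S100A11* (8 peaks) or after *S100A7* (18 peaks), a division made after the values were seen. A peak overlapped 7 of the 16 S100A genes (43.8%) and 1 of the 48 others (2.08%), which was *CHTOP*, a chromatin and mRNA export factor at the edge of the interval. No peak overlapped any of the 19 LCE genes, the 11 SPRR genes or the 7 S100 fused-type genes, the family of filaggrin. The complex as a whole had 8 of 64 genes with a peak over the gene (12.5%, Wilson 95% interval 6.47% to 22.8%). Of all protein-coding genes 50.8% had one, of those on 1q 49.1% and of the 935 on 1q outside the complex 51.7%. Among the 462 other 1q genes in the length range of the complex it was 37.9%. Median lengths are 1257 bp for LCE, 1734 bp for SPRR and 4366.5 bp for S100A genes. Of all protein-coding genes of at most 2000 bp, 7.63% had a peak. The intervals of the LCE (0% to 16.8%) and SPRR shares (0% to 25.9%) include this. The S100 fused-type genes have a median of 9128 bp, and 42.3% of all genes from 5001 to 30000 bp had one. The experiment has no replicates, so these are descriptions without a test, and the intervals cover counting error only, since genes are not replicates. A gene without a peak is one at which no region passed the threshold of the peak caller, which does not show that CHD4 was absent. Below, fold enrichment is the ChIP signal of a region relative to the background estimated by the peak caller, and its −log10 q rises as the false discovery rate of the region falls. A gene start is any annotated transcript start of the gene, and the canonical start is that of its reference transcript.

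**Figure D1:**
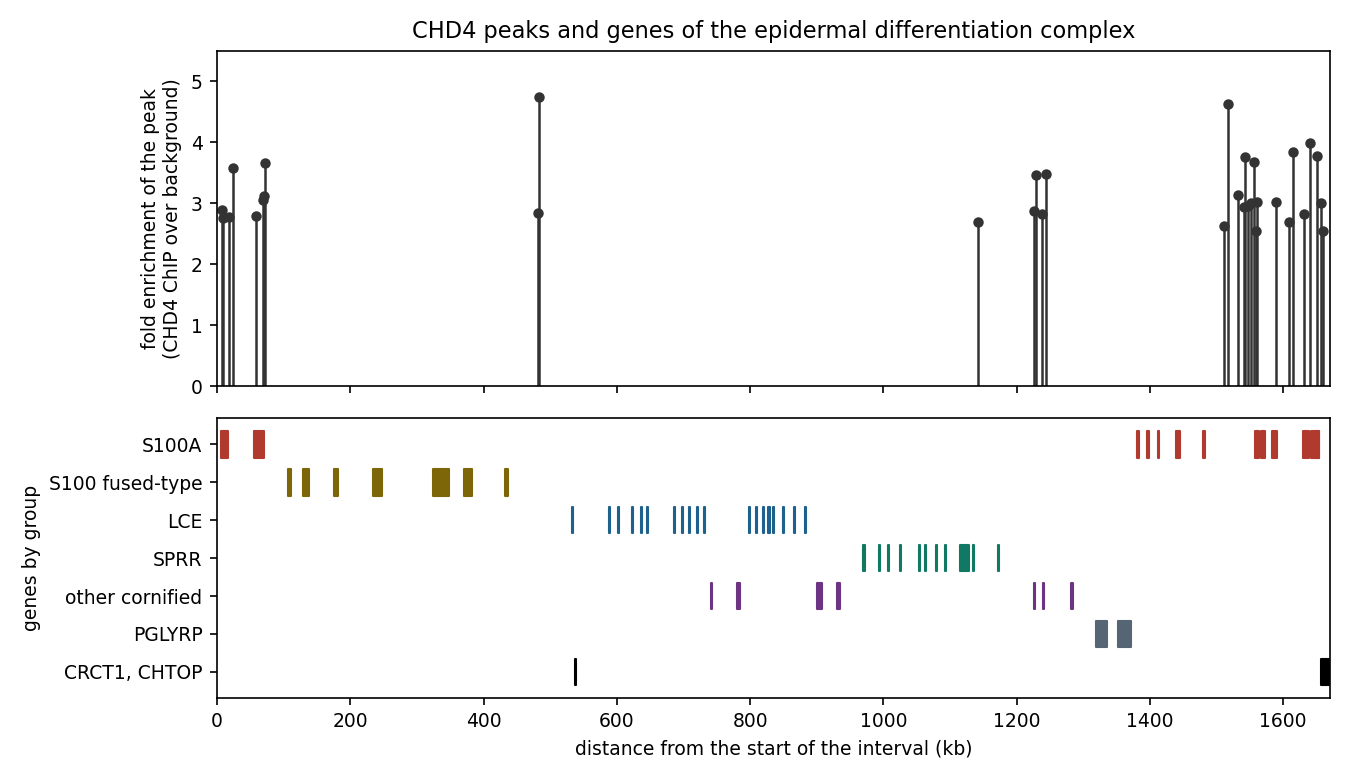
Map of the epidermal differentiation complex, with distance from the start of the interval in kb on the horizontal axis. In the upper panel each line and point is 1 of the 33 CHD4 peaks, its height the enrichment given by the peak caller, as a fold over background; in the lower panel boxes mark the 64 genes, 1 row for each group, drawn at least 1.5 kb wide. Of the peaks, 26 lie towards the ends, 8 of them in the gap between *S100A7* and *S100A6*, and none lies over an LCE, SPRR or S100 fused-type gene.

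The sequences under the peaks are shown for the peak of highest fold enrichment and for 2 peaks within 1000 bp of a gene start, before *S100A14* and beyond *S100A11*, whose printed part holds no untranslated exon. The peak of highest −log10 q was added after its value was seen. All are the plus strand of GRCh37, the whole peak or the central 300 bases, and capitals mark matches to 3 motifs searched on both strands, TGANTCA (AP-1), CACGTG (E-box) and the core of the CTCF site. The last sequence extends beyond its peak on both sides.
between *CRNN* and *LCE5A*, chr1:152432713-152432864: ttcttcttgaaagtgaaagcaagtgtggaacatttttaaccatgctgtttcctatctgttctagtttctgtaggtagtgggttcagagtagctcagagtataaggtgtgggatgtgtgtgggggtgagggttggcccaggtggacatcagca
before *S100A14*, chr1:153590024-153590208: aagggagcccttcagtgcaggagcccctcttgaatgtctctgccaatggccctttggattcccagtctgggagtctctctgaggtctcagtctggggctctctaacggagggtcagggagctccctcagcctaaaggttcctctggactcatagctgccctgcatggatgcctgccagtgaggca
beyond *S100A11*, chr1:152021065-152021364: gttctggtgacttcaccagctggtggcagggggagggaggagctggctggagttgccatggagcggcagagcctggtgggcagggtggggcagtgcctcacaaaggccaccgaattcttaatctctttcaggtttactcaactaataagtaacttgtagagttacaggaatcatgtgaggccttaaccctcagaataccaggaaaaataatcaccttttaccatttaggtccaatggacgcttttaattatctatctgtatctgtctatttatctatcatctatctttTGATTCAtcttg
between *S100A7* and *S100A6*, chr1:153467539-153467838: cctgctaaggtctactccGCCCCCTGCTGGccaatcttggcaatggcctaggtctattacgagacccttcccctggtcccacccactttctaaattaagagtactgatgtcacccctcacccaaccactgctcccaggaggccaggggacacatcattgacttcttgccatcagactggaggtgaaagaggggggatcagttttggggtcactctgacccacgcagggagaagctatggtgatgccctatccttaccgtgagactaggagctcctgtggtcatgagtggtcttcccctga
The sequence beyond *S100A11* holds a match to the AP-1 pattern, TGATTCA, inside the peak. The N of this pattern is any base, and this match lacks the central C or G of the AP-1 consensus. The CTCF core in the last sequence, from 153467557 to 153467568, ends 43 bp before the first base of its 154-bp peak. The sequences between *CRNN* and *LCE5A* and before *S100A14* hold none of the 3 motifs in the window shown.

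The first end of the complex holds *S100A10* and *S100A11*. *S100A10*, the light chain of the annexin A2 complex, had 2 peaks within the gene. The first, from 151956945 to 151957595, lies in an intron and had a fold enrichment of 2.89 with a −log10 q of 2.04. The second, from 151958351 to 151958661, covers 87 bp of exon and had a fold enrichment of 2.75. Neither lies within 1000 bp of a start, and another peak lies 1519 bp before the canonical start, within the long non-coding RNA gene ENSG00000229021. The peak with the highest −log10 q of this end, 3.67, at a fold enrichment of 3.58, lies in the same RNA gene, from 151973973 to 151974312. *S100A11*, whose protein was described in keratinocyte growth control, had 3 peaks over the gene, the most of any gene of the complex. The peak over its canonical start, from 152007758 to 152009895, is 2138 bp long and had a fold enrichment of 2.79 with a −log10 q of 1.54. The peaks at its far upstream start were stronger, with fold enrichments of 3.11 and 3.66, the latter with a −log10 q of 3.45. The 64993 bp from *S100A10* to *S100A11* held 7 peaks, or 108 per Mb, against 25.3 per sequenced Mb over 1q. Per uniquely mappable Mb, a different denominator, the windows of 1670001 bp on either side had 76.5 and 78.1 peaks and the whole complex 21.4.

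The other end, from *S100A6* to *CHTOP*, held 10 peaks in 111708 bp, or 89.5 per Mb. The broadest peak of the complex, 4455 bp from 153598776 to 153603230, spans the starts of *S100A13* and *S100A1*, which lie head to head on opposite strands. Its fold enrichment was 3.78 with a −log10 q of 4.30, and 98.6% of all peaks of the list are shorter. *S100A1* is best known from heart muscle, and *S100A13* takes part in the release of growth factors that lack a signal peptide. *S100A2*, an S100 gene active in basal keratinocytes, had a peak of 2850 bp over its canonical start with a fold enrichment of 3.02. Those at *S100A16* and *S100A5* were shorter, at 673 and 273 bp, with fold enrichments of 2.82 and 3.01, and the *S100A5* peak lies 2079 bp from the canonical start. Peaks beside rather than over the gene were found at *S100A14* and *S100A6*. The *S100A14* peak is 185 bp long and had a fold enrichment of 3.98 with a −log10 q of 5.01, above 94.3% of all peaks by fold enrichment. By length, 8.39% of all peaks are shorter. The *S100A6* peak had the lowest fold enrichment of the complex, 2.54, with a −log10 q of 1.08. *CHTOP* had a peak over its start with a fold enrichment of 3.0 and one within the gene with 2.55.

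The S100A genes did not all have a peak. *S100A9*, *S100A12* and *S100A8*, which encode the calgranulins of neutrophils and monocytes, and *S100A7A* and *S100A7*, the psoriasin genes that are induced in inflamed skin, had no peak over the gene, at a start or in the 2000 bp before it. These 5 genes are neighbours in a block of 102798 bp without a peak, and their starts lie from 28222 bp (*S100A7*) to 131019 bp (*S100A9*) from the nearest peak. *S100A4* and *S100A3*, on the side with peaks, also had none, but their starts lie 6951 and 10403 bp from one. The remaining 9 S100A genes had a peak over the gene or in the 2000 bp before it, or 56.2% of 16. By the same measure 58.3% of all protein-coding genes had one, 56.6% of those on 1q, 59.1% of those on 1q outside the complex, and 43.1% of all genes and 48.3% of other 1q genes in the length range of the complex. At gene starts, 7 of the 16 had a peak within 1000 bp (43.8%, interval 23.1% to 66.8%), against 42.4% of all protein-coding genes, 41.9% of those on 1q and 43.9% of those on 1q outside the complex. The interval of the S100A genes includes each of these shares. Of the 4 S100 genes on other chromosomes, looked up after these values were seen, *S100B*, a marker of melanoma and the nervous system, had a peak over its start, and *S100P*, *S100Z* and *S100G* had none over the gene.

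Between *S100A7* and *S100A6* the annotation places no protein-coding gene over 73947 bp, and 8 peaks lay there, again 108 per Mb. They had fold enrichments from 2.63 to 4.62. The strongest, from 153467612 to 153467765, had the highest −log10 q of the complex, 7.04, and lies 34485 bp from the start of *S100A7*. Further towards *S100A6* a peak from 153492825 to 153493252 had a fold enrichment of 3.75, and one from 153505580 to 153505961 had 3.68. The latter lies 2506 bp from the canonical start of *S100A6*, the calcyclin gene, in the non-coding RNA gene ENSG00000238279. The block of 5 S100A genes without a peak is therefore next to this run of peaks, which begins 28222 bp from the start of *S100A7*.

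From the end of *S100A11* to the start of *LELP1* the complex extends over 1155522 bp with 42 protein-coding genes. Only 5 peaks lay in this stretch, or 4.33 per Mb, and 2 of them were the peak just beyond *S100A11* and the peak just before *LELP1*. The remaining 3 had no gene start within 1000 bp. A pair lies between *CRNN* and *LCE5A*, from 152430864 to 152431266 and from 152432713 to 152432864, 44125 and 45974 bp from the start of *CRNN*, the cornulin gene. The second of this pair is 152 bp long and had the highest fold enrichment of the complex, 4.75, above 99.1% of all peaks, with a −log10 q of 5.39. It is close to the shortest length in the list, 151 bp, and 3.06% of all peaks are shorter. The last of the 3 lies between *SPRR2F* and *SPRR2G*, 5550 bp from the start of *SPRR2F*, and was among the weakest, at a fold enrichment of 2.69 (−log10 q 1.21).

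The S100 fused-type genes, from *TCHHL1* to *CRNN*, held no peak in 330123 bp. They include *FLG*, the filaggrin gene, in 23075 bp the longest gene of the complex, whose start lies 133149 bp from the nearest peak. For *FLG2* this distance was 98382 bp, for *HRNR* (hornerin) 175050 bp and for *TCHH*, the trichohyalin gene of hair follicles, 66301 bp. Trichohyalin and filaggrin are substrates of the protein arginine deiminases. The LCE genes, from *LCE5A* to *LCE7A*, held no peak in 350450 bp, with a median distance of 237957 bp from start to nearest peak. The farthest was *LCE1E*, at 325869 bp. *IVL*, the involucrin gene, lies between the LCE and SPRR genes, 210520 bp from the nearest peak, and *LORICRIN*, which encodes the main protein of the cornified envelope, 37690 bp. Along the SPRR genes the distance shortened from 171860 bp at *SPRR5* to 24540 bp at *SPRR2E* and 5550 bp at *SPRR2F*, and was 31124 bp at *SPRR2G*, beyond the peak. *PGLYRP3* and *PGLYRP4*, whose proteins bind bacterial peptidoglycan, had no peak either and lie 90955 and 126844 bp from one.

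The longest stretch without a peak, from 152432865 to 153091541, measures 658677 bp and contains 34 protein-coding genes, 19 LCE genes, 10 SPRR genes, *IVL*, *KPRP*, *SMCP*, *C1orf68* and *CRCT1*. It lies between the strong peak after *CRNN* and the weak one after *SPRR2F*. Such length is not rare on 1q, where 12 fully sequenced stretches are at least as long, this one included. Those others hold at most 30 protein-coding genes, so none of them held as many genes as the stretch in the complex.

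At *LELP1* and *PRR9*, genes for proline-rich proteins that lie between the SPRR genes and *LORICRIN*, 4 peaks broke the pattern of the central genes. A peak of 400 bp from 153175280 to 153175679 lies 227 bp before *LELP1*, with a fold enrichment of 2.87. Downstream of the gene a peak of 2040 bp had 3.46 and a −log10 q of 3.49. *PRR9* had a 151-bp peak 1700 bp before its start, with a fold enrichment of 2.83, and a peak of 1663 bp downstream of the gene with 3.47 and a −log10 q of 3.17. None of the 4 overlaps a gene, and both broad ones lie downstream. *LELP1*, *PRR9* and *CHTOP* were the only genes outside the S100A family with a peak over the gene, at a start or in the 2000 bp before it.

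**Figure D2:**
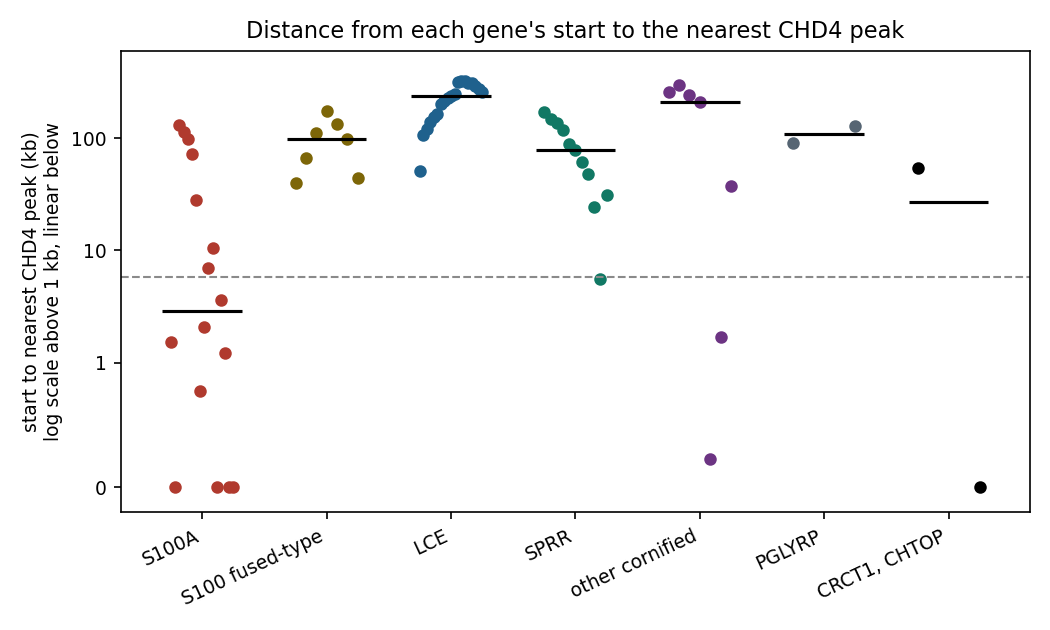
Distance from the canonical start of each of the 64 genes to the nearest CHD4 peak, in kb, on a scale that is linear below 1 kb and logarithmic above, by gene group. Each point is 1 gene, in map order from left to right within its group, black lines are group medians, and the dashed line is the median of the 935 protein-coding genes of 1q outside the complex, 5746 bp. The S100A genes fall on both sides of it, and the S100 fused-type and LCE genes all lie above it.

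The distance from gene start to nearest peak, a measure chosen after the values were seen, makes no use of gene length. Its median was 102387 bp over the 64 genes, against 5746 bp over the other 935 genes of 1q and 7122 bp over all protein-coding genes. It was 2858.5 bp for the S100A genes, 77946 bp for the SPRR genes and 98382 bp for the S100 fused-type genes. A start more than 100000 bp from any peak was found for 32 of the 64 genes, among them 18 of 19 LCE genes, against 12% of the other 1q genes. Neighbouring genes share their nearest peak, so these distances are not independent of each other.

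Gene length bears on the shares of genes with a peak. The genes of the complex have a median length of 1928.5 bp, against 27219 bp over all protein-coding genes, and the S100A genes are longer, at 4366.5 bp, than the LCE genes, at 1257 bp. Among the 462 genes of 1q outside the complex in the same length range, from 270 to 23075 bp, 37.9% had a peak over the gene (interval 33.6% to 42.4%) and 39.6% one at a start. Over the genome 32.6% and 35.1% of genes in this range did. The complex had 14.1% at a start (9 of 64, interval 7.58% to 24.6%). Of the 33 genes of at most 2000 bp, 0 had a peak over the gene, and 5 of 69 such genes elsewhere on 1q had one, or 7.25%. At a start the values were 6.06% and 13.0%. From 2001 to 5000 bp the share with a peak over the gene was 15.4% of 13 genes, against 36.4% of 66. From 5001 to 30000 bp it was 33.3% of 18 genes, against 45.7% of 387.

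**Figure D3:**
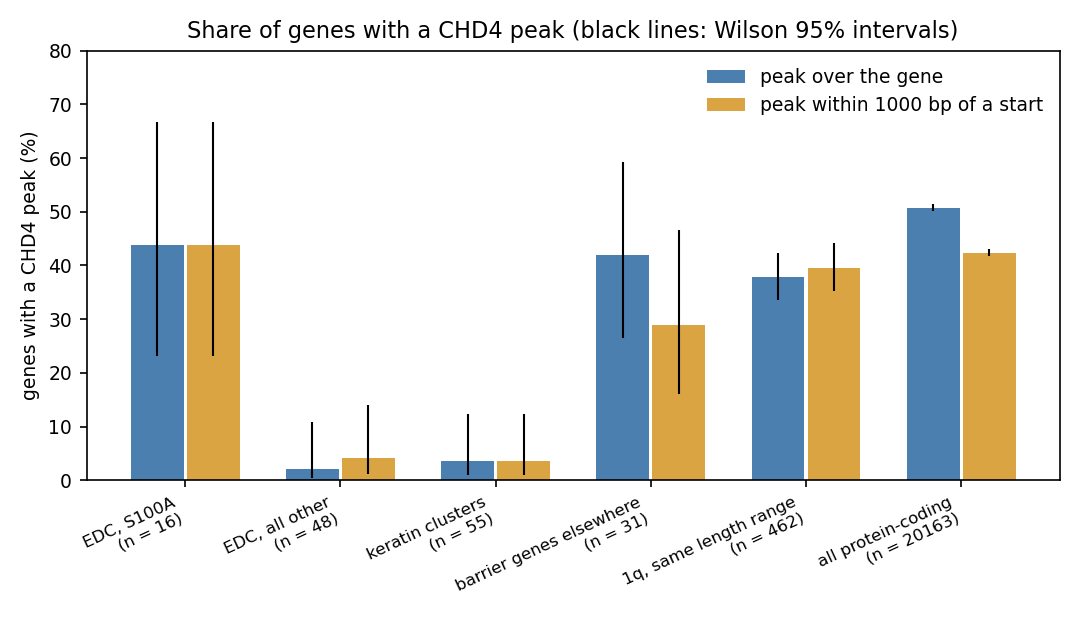
Percent of genes with a CHD4 peak over the gene (blue) or within 1000 bp of an annotated start (yellow), with black lines for Wilson 95% intervals, which cover counting error only, and the number of genes below each pair of bars. The 48 genes of the complex (EDC) outside the S100A family have 2.08% and 4.17%, and the keratin genes 3.64% and 3.64%, against 43.8% and 43.8% for the 16 S100A genes.

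The keratin genes of chromosomes 12 and 17, another tandem array active in epithelia, were set beside the complex. Of these 55 genes, 2 had a peak over the gene (3.64%, interval 1.0% to 12.3%), against 50.8% of all protein-coding genes and the 2.08% (0.369% to 10.9%) of the genes of the complex outside the S100A family. Of 31 skin barrier genes elsewhere in the genome, 13 had a peak over the gene (41.9%, interval 26.4% to 59.2%, which includes the 50.8% of all protein-coding genes). At a start 9 had one (29%, interval 16.1% to 46.6%, which includes the 42.4% of all protein-coding genes). The latter were *ALOX12B* and *ALOXE3*, lipoxygenases that make barrier lipids, *SULT2B1*, a cholesterol sulphotransferase, *EVPL* and *TGM5*, for envoplakin and a transglutaminase of the cornified envelope, the transcription factor genes *GRHL3*, *KLF4* and *OVOL1*, and *PADI1*, for a deiminase of filaggrin. Their highest fold enrichments at a start ran from 2.84 (*GRHL3*) to 4.37 (*SULT2B1*). For *GRHL3*, *TGM5*, *PADI1* and *ALOX12B* the peak lay at an annotated start other than the canonical one. The canonical starts of these genes lie 93902, 27088, 13645 and 6357 bp from the nearest peak. *TP63*, the master regulator of stratified epithelia, had no peak over the gene, the nearest lying 235351 bp from its canonical start. *KRT1* and *KRT10*, keratins of the differentiating layers, had none either. The barrier genes outside the complex are long, with a median of 22805 bp, and the shares over the gene are not comparable with those of the complex for that reason.

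**Figure D4:**
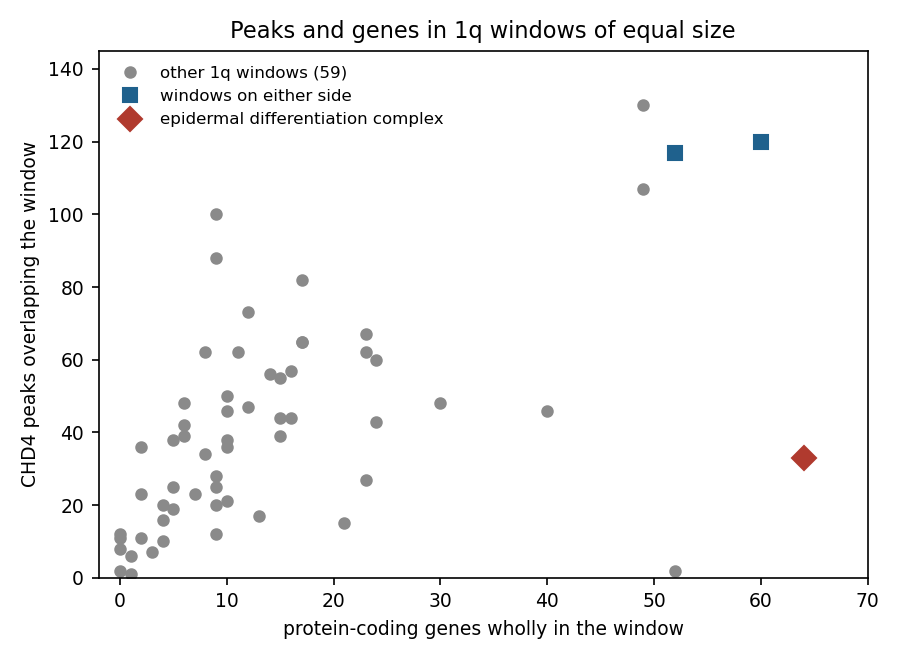
CHD4 peaks (vertical axis) against protein-coding genes (horizontal axis) in 60 windows of equal size tiled along 1q. The red diamond is the epidermal differentiation complex, with 64 genes and 33 peaks, blue squares are the windows on either side of it, with 117 and 120 peaks, and grey points are the rest of the 59 other windows.

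Whole windows of the size of the interval, 1670001 bp, were tiled along 1q in both directions from it. The complex held more protein-coding genes than any of the 59 other windows, 64 against at most 60, but its 33 peaks were below the median of 39. Of the other windows, 24 (40.7%, interval 29.1% to 53.4%) had at most as many peaks. Peaks covered 28.3 kb of it, against a median of 36.5 kb. Both neighbouring windows had far more peaks, 117 with 52 genes on one side and 120 with 60 genes on the other, and 40 and 47 of these genes had a peak over them. Relative to genes the complex was low, with 0.516 peaks per gene against a median of 3.60, and 1 of the 55 other windows with genes had fewer. Relative to the 172 distinct transcription starts it had 19.2 peaks per 100, against a median of 30.7, and 11 of 59 windows (18.6%) had at most as many. Across the 60 windows, peak number and starts had a Spearman's rho of 0.657 and a Pearson's r of 0.749, and peak number and GC content 0.538 and 0.563. These windows are of 1 library and share its depth.

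Among the 6 other windows with at least 32 protein-coding genes, peak numbers ran from 2 to 130 with a median of 112, and the 4 without olfactory receptor genes had at least 107. The window with 2 peaks lies near the end of the arm, and 43 of its 52 genes encode olfactory receptors, none of the 52 having a peak over the gene. A window with 9 olfactory receptor genes among 40 had 46 peaks and 35.0% of genes with a peak. The complex, with 12.5%, lay between these. The GC content of the complex was 42.5%, at least that of 46 of the 59 other windows. Of the 14 windows within 1 percentage point of it, a range chosen after the values were seen, 2 had at most as many peaks, and their median was 46.

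Because only reads with 1 best position were kept, repeated genes can lose reads. In the complex 92.4% of the 50-base words sampled every 10 bp occur once in the genome, against 88.9% over 1q and a median of 94.4% in the other windows. For the LCE genes from *LCE5A* to *LCE7A* this share was 93.8%, for the SPRR genes 92.6% and for the S100 fused-type genes 88.9%, against 97.6% from *S100A10* to *S100A11* and 93.7% from *S100A6* to *CHTOP*. It was low within a few tandem-repeat or duplicated genes, at 61.6% in *HRNR*, 66.4% in *LCE2C*, 68% in *LCE2B*, 72.4% in *SPRR2B*, 79.1% in *SPRR2A*, 81% in *LCE1E* and 83.8% in *FLG*. Among genes at 100%, *LORICRIN*, *CRNN*, *TCHHL1*, *LCE2A* and *LCE4A* are examples without a peak over the gene, and *S100A16* and *S100A1* had one. The GC content was 40.6% in the S100 fused-type genes, 41.2% in the LCE genes and 39.4% in the SPRR genes, where peaks were few, and 44.4% and 49.7% at the S100A ends. It was 46.3% both from *S100A9* to *S100A7*, with 0 peaks, and between *S100A7* and *S100A6*, with 8 peaks. From *PGLYRP3* to *PGLYRP4* it was 43.2%, with 0 peaks, and from *LELP1* to *LORICRIN* 45.3%, with 3 peaks. The parts of read uniqueness and of base composition in the peak numbers were not tested.

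As a set, the 33 peaks had a median fold enrichment of 3.01 (95% interval from order statistics 2.84 to 3.46), against 3.06 on 1q and 3.09 over all peaks. Their median length was 417 bp (318 to 810 bp), against 626 and 613 bp. A −log10 q below 2 was given for 14 of them. A −log10 q of at least 5 was given for 3 of them (9.09%, interval 3.14% to 23.6%), against 2.23% of all peaks. These 3 are the peak after *CRNN*, the strongest one between *S100A7* and *S100A6*, and the one before *S100A14*, and they measure from 152 to 185 bp. Those 3 and a short peak between *S100A2* and *S100A16* made up 4 of the 5 with the highest fold enrichment, the last named being a 162-bp peak from 153565328 to 153565489 with 3.83. These lengths are close to the shortest in the list, 151 bp, and how fold enrichment relates to peak length was not tested. Of the 33 peaks, 22 (66.7%, interval 49.6% to 80.2%) lay away from protein-coding genes, against 44% on 1q and 43.9% over all peaks. Of these, 5 lay in another annotated gene and 17 in no gene. The genes of the complex are short, with a median of 1928.5 bp against 27219 bp over all protein-coding genes. The share of its bases inside genes was not computed, so these values do not show that its peaks avoid genes. A protein-coding start within 1000 bp was found for 11 peaks (33.3%), against 19.2% on 1q and 17.7% over all peaks.

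Within 150 bp of the peak centre, 5 of the 33 peaks held the AP-1 motif (15.2%, interval 6.65% to 30.9%), against 11.2% of 1q peaks and 11.3% of all peaks. The pattern searched, TGANTCA, takes any base at its centre. All AP-1 counts here can therefore include matches without the C or G of the consensus, and the stricter form was not counted. The CTCF core and the E-box were each found within this distance of the centre of 1 peak (3.03%), the CTCF core outside the peak itself, against 2.11% and 5.05% of all peaks and 2.50% and 6.41% of 1q gene starts. AP-1, a dimer of FOS and JUN proteins, is a known activator of epidermal genes. Around the canonical starts, in regions of the same length, the AP-1 motif was found at 15 of the 64 genes (23.4%). It was found at 7.11% of the starts on 1q, those of the complex included, a comparison made after the peaks were examined. The 15 genes include *IVL*, *LORICRIN*, *FLG*, *FLG2*, *TCHH*, *SPRR1A* and *SPRR1B*, and 5 of the 7 S100 fused-type genes. Among the larger groups it was found at 1 of 19 LCE genes (5.26%), 2 of 11 SPRR genes and 3 of 16 S100A genes. Of these 15 genes, *LELP1* and *S100A2* had a CHD4 peak at a start, beside 9 of all 64 (14.1%).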

How the data were processed

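CHD4 ChIP and input chromatin of 501Mel cells were sequenced with 1 library of each. According to the methods and the submitters' processing notes, the authors aligned 50-base single reads on hg19 (Bowtie 1.0.0), retained those with 1 best position and ran MACS2 2.1.1.20160309 for broad peaks. The sources used here do not say whether the input served as control. The paper's reporting summary names another Bowtie version. The labels name the NEXTflex kit for the libraries and the methods another one. For each region the authors deposited a score (the −log10 q times 10, as an integer), the fold enrichment over the background (a ratio) and the −log10 of p and q. The study states a q threshold of 0.01, but the lowest −log10 q of the deposited list is 1.0, and regions below 2 were kept. The list holds no read counts, so the depth behind a peak is unknown. Its values serve here to describe and filter peaks.

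Positions, counted from 1, were compared with GENCODE release 44 lifted to GRCh37, not the annotation of the study. An overlap of 1 bp counted, and mitochondrial peaks were not used. 1q was taken from 142535435, after the largest unsequenced gap, and windows with at least 90% sequenced bases were kept. Every 10th 50-base word of 1q was looked up on both strands of the genome. The interval functions were tested on 100 simulated sets. Genes with a peak, those beside the strongest peaks and the longest stretch without one, and the best known structural genes were named. Of the 12 peaks eligible for a printed sequence, 9 are not shown here. The members and lists were chosen with earlier results of these data known. Alternatives varied the q threshold, joining of peaks, overlap, promoter width and tiling. Software was samtools 1.23.1, matplotlib 3.10.9, numba 0.67.0, pysam 0.24.0, scipy 1.17.1, pandas 2.3.3, numpy 2.4.6 and Python 3.11.15.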

Additional observations from a re-analysis of the deposited data

How the results depend on the processing

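No paired analysis was possible because the CHD4 ChIP and the input have 1 library each and nothing was tested between them. Of 31 alternative values, 19 stayed near the reported one and 12 moved, most under a stricter q. For a share or a median, near meant inside the interval of the reported value. For a count it meant a limited ratio to the reported one. These limits are wide: a change from 8 to 12 genes with a peak, when the 2000 bp before the gene were added, counted as near. At a −log10 q threshold of 2 the complex had 19 peaks, at a median fold enrichment of 3.47, and 5 genes with a peak at a start, and 55.9% of the other 1q windows had at most as many peaks. The 6 genes then left with a peak over the gene were all S100A genes, and 26% of other 1q genes in the same length range had one. At a threshold of 5 it had 3 peaks, 0 genes with a peak over the gene, 1 gene with a peak at a start and 100% of peaks away from protein-coding genes, and 96.6% of windows had at most as many peaks and 64.4% at most as many bases under peaks. At that threshold 2.38% of the other 1q genes of like length had a peak, so the contrast between groups cannot be seen. Shifting the tiling put 55.2% of windows at or below the complex, and counting peaks per transcription start 18.6%. The rank among windows therefore depends on these choices, whereas peaks joined within 1000 bp left 7 S100A genes and 1 other gene with a peak.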
